A study of Mus musculus with 8 samples.

Results

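NMuMG is a non-transformed epithelial cell line derived from mouse mammary gland, and the study used a subclone of it. The cells described here were transfected with a control siRNA (siControl) and received no TGFβ. Their RNA was hybridised to 2 Affymetrix whole-transcript gene arrays, out of 8 arrays in the series. The other groups, with 2 arrays each, were cells transfected with siRNAs against Klf4 (siKlf4) without TGFβ, and siControl and siKlf4 cells kept in 2 ng/ml TGFβ for 2 days. All groups had therefore been through a transfection, and cells without any siRNA were not among the arrays. Whether replicate arrays stem from independent cultures is not given in the sources used here, and the difference between them may thus be technical. A subclone in culture also limits what these levels can say about mammary gland tissue.

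Mammary epithelium consists of an inner luminal layer, which makes the simple keratins and E-cadherin and produces milk, and an outer basal layer of contractile myoepithelial cells. Epithelial cells are tied to each other by adherens junctions, desmosomes and tight junctions and to the basement membrane by integrins. In epithelial-mesenchymal transition (EMT), which TGFβ induces in NMuMG cells, cells give up these contacts and turn on a mesenchymal programme with vimentin, N-cadherin and fibronectin. Klf4 is a zinc finger transcription factor of differentiated epithelia.

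The members are genes. Of 34760 probe sets, 21640 have exactly 1 gene symbol in the platform annotation, 1321 have several and 11799 are not listed there. The highest probe set of each gene on the 2 arrays was kept, which gave 19937 genes, ranked by the mean log2 value of both arrays. The arrays carry no detection call, so a background level was taken from 1203 genes of olfactory, vomeronasal and trace amine receptors, which are chemosensory genes of the nose. Their median log2 value was 3.14 and their range 2.48 to 6.97. A gene is called near background here when its mean was at or under 4.32, the 95th percentile of these receptor genes, and bright when it belonged to the highest 10% of genes, which begins at 9.19. By these limits 6567 genes (32.9%) were near background, 1994 were bright and 11376 (57.1%) lay in between. Of the genes near background, 1142 were chemosensory receptors themselves. How bright a probe set is also depends on its probes, so the order of 2 genes is not the order of their transcript numbers.

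**Figure D1:**
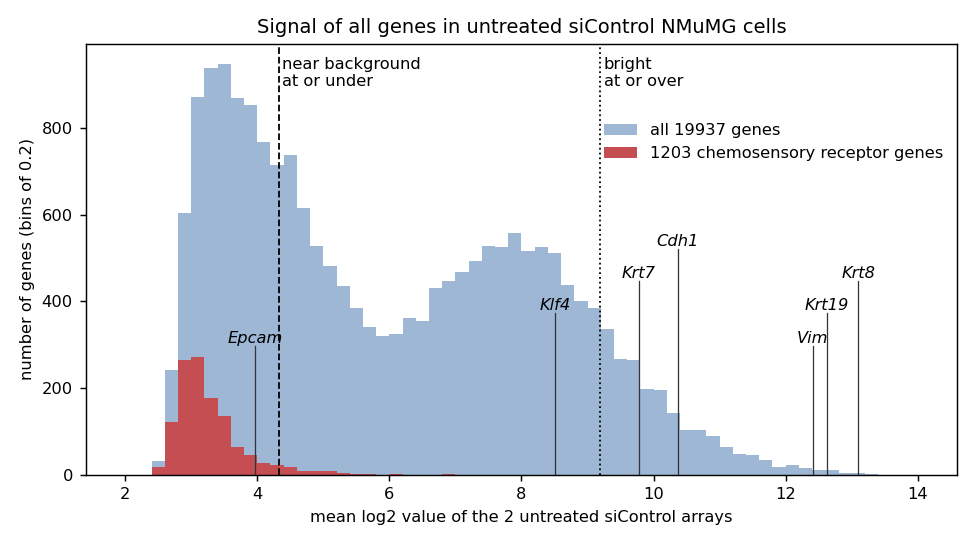
Number of genes (vertical axis) by mean log2 value of the 2 untreated siControl arrays (horizontal axis), for all 19937 genes and for the 1203 chemosensory receptor genes, with the limits of the near background and bright classes as vertical lines. Krt8, Krt19, Vim, Cdh1 and Krt7 lie above the bright limit of 9.19, Klf4 at 8.51 and Epcam under the background limit of 4.32.

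The limits cut through a continuous distribution. Galp (4.32131) and Il17a (4.32138) lay just under the background limit and Olfr796 (4.32228) and Fsd1l (4.3225) just above it. Glg1 (9.19225) and Lcor (9.1926) fell just short of bright, whereas Cpt1a (9.19275) and Zdhhc13 (9.19289) were just inside. In 699 genes the background limit separated the 2 arrays from each other. A second reference of 46 genes restricted to germ cells, eye, heart, pituitary and other organs had 34 members near background, 12 in between and 0 bright. The highest of these was the renal water channel Aqp2 at 5.79. Their 95th percentile was 4.87, so a value between 4.32 and 4.87 is within the range of genes restricted to other organs.

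The 2 arrays were close to each other. Across all genes the median absolute difference was 0.118 on the log2 scale, with a 95th percentile of 0.406, and Pearson's r over genes, which are not independent replicates, was 0.997. For bright genes the median difference was 0.0723 and for genes near background 0.122. Only 12 genes differed by more than 1. The largest gaps were in the olfactory receptor Olfr767 (5.98 and 7.72), the zinc finger gene Zfp931 (5.02 and 3.45), the olfactory receptor Olfr1290 (3.76 and 2.52), the calcium channel subunit Orai2 (7.20 and 8.41) and Srsy (5.12 and 3.92). These 5 genes are not members of any list described below.

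The 20 brightest genes were mostly genes of protein synthesis and of the cytoskeleton. They were Eef1a1, Rpl9, Actb, Rps18, Krt8, Scd2, Rn7sk, Pgam1, Rplp0, Pabpc1, ND3, Rplp1, Ppia, Rpl10, Eif4a1, Lgals1, Txn1, Krt19, S100a6 and Rps2, with means from 13.32 down to 12.57. Eef1a1, the translation elongation factor that brings aminoacyl-tRNA to the ribosome, headed the list at 13.25 and 13.38. Krt8, a keratin of simple epithelia, was the fifth at 13.10 on both arrays. Scd2, a stearoyl-CoA desaturase that makes monounsaturated fatty acids, was the sixth at 12.94 and 12.90. Lgals1 encodes galectin-1 and S100a6 a calcium-binding protein, and they had means of 12.64 and 12.62. Ribosomal protein genes have many processed pseudogenes, so their probe sets may also read copies of them, which was not tested.

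Among the 5 marker genes chosen for these cells, both epithelial and mesenchymal transcripts were bright. Cdh1, which encodes E-cadherin of adherens junctions, was at 10.37 and 10.36. Krt19 was at 12.65 and 12.60 and Krt7, another keratin of simple epithelia, at 9.84 and 9.72. Vim, whose product vimentin forms the intermediate filaments of mesenchymal cells, was at 12.42 and 12.40 (percentile 99.9 of all genes by rank). Klf4 was at 8.60 and 8.43, at percentile 82.9 of all genes. Cdh1, Krt19, Krt7 and Vim were thus bright on both arrays, while Klf4 was well above background and not bright. An array of bulk RNA cannot tell whether E-cadherin and vimentin transcripts came from the same cells, and fewer cells of a type cannot be told apart from less RNA per cell.

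Most genes of the cell cycle were bright, and for this reason the cells are called untreated here and not resting. Of 31 measured genes of this list, 24 were bright and 0 near background, beside 10% and 32.9% of all genes. Pcna, the sliding clamp of DNA polymerase, was at 12.21 and 12.20. Whether the probe set kept for Pcna also reads a copy of the gene was not tested. The cyclin-dependent kinase Cdk4 (11.54 and 11.50) and its partner Ccnd1 (11.54 and 11.43), the ribonucleotide reductase subunit Rrm1 (11.25 and 11.13), the S phase cyclin Ccna2 (11.05 and 10.95), Top2a (10.59 and 10.47) and the proliferation marker Mki67 (10.44 and 10.13) were also bright. The lowest members were the inhibitor Cdkn1c (5.49 and 5.85), the cyclin Ccne1 (8.07 and 7.97), the inhibitor Cdkn2b (8.28 and 8.33) and the cyclin Ccnd3 (8.60 and 8.40).

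Sequence just upstream of the start site differed between the classes in its content of CpG dinucleotides, the sites of DNA methylation in mammals. Promoters are compared here over the 250 bases before the RefSeq start site (GRCm38.p6), for protein-coding genes with an entry in the promoter table, which held 84.1% of the bright, 80.5% of the intermediate and 80.5% of the near background genes. The median ratio of observed to expected CpG was 0.803 in bright genes, 0.691 in between and 0.230 near background. A ratio of at least 0.6 was found in 79.3%, 61.6% and 16.6% of these promoters, beside 49.6% over all 3 classes and 34.5% of all 27025 promoters of the table. A GC box (GGGCGG on either strand) occurred in 64.8% of bright, 57.1% of intermediate and 20.9% of near background promoters, beside 46.7% over the classes and 32.9% of all. A TATA box (TATAAA on either strand) occurred in 6.25%, 6.89% and 21.4%, beside 11.3% over the classes and 13.0% of all. The CCAAT box (CCAAT on either strand) varied less, with 40.2%, 35.1% and 34.9%, beside 35.6% over the classes and 34.5% of all. CACCC on either strand, the core of sites that Klf proteins are known to bind, was in 56.5%, 58.3% and 46.9%, beside 54.5% over the classes and 51.3% of all. The near background class includes the chemosensory genes, and without them the share with CACCC was 54.7%, next to that over the classes. The shares with a CpG ratio of at least 0.6, a GC box and a TATA box were then 20.8%, 26.4% and 16.7%. These values cover 79.1% of the genes left, under the 80% required here, so as a check they are void and are given as a description. Matches may overlap at their ends and each motif was counted on its own. A match is only a match of letters, not a bound site.

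Single genes departed from these medians in both directions, as the following 6 promoters show. Pcna, Vim and Lgals4 were bright, Klf4 intermediate, and Epcam and Csn2 near background. Each sequence is the 250 bases before the start site, 5′ to 3′ on the strand of the gene, with TATA and GC boxes in capitals.
Pcna, chr2:132253181-132253430, minus strand: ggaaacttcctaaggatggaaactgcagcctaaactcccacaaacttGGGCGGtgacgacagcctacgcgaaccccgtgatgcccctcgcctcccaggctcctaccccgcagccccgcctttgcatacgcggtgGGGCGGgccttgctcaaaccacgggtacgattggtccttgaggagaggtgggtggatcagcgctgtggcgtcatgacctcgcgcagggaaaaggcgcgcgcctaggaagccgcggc
Vim, chr2:13574061-13574310, plus strand: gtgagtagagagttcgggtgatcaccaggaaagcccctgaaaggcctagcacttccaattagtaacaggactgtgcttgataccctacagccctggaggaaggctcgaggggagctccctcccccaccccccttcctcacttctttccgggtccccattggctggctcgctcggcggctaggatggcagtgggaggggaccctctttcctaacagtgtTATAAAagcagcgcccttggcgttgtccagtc
Lgals4, chr7:28833544-28833793, plus strand: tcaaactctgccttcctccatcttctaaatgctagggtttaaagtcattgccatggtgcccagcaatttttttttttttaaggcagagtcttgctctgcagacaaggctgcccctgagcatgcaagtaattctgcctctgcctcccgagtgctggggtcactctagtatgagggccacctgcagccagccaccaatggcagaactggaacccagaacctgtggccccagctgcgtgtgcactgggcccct
Klf4, chr4:55532476-55532725, minus strand: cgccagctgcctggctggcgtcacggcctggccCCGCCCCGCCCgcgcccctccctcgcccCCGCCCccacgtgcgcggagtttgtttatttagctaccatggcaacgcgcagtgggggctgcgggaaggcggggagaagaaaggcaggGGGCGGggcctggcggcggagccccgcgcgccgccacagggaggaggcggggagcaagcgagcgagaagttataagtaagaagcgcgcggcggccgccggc
Epcam, chr17:87635729-87635978, plus strand: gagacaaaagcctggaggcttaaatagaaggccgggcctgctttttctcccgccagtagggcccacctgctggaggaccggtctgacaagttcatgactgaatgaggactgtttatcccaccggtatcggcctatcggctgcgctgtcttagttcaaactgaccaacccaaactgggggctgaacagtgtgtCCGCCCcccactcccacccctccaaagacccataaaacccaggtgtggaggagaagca
Csn2, chr5:87699426-87699675, minus strand: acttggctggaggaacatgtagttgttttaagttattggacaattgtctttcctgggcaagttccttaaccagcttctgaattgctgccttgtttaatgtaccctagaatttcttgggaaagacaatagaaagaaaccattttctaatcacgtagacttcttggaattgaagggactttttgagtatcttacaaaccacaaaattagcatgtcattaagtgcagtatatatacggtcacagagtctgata
Pcna had a CpG ratio of 0.860 and 2 GC boxes, and Klf4 a ratio of 0.941 and 4 GC boxes. Vim, bright at 12.41, had a ratio of 0.376 and 1 TATA box that begins 32 bases before the start. Lgals4, bright at 12.10, had a ratio of 0.113 with neither box, which is lower than the ratio of 0.238 of the milk protein gene Csn2, near background at 3.11. Epcam, near background, had a ratio of 0.405 and 1 GC box. Bright as well as near background genes thus occurred with a low CpG ratio and without either box.

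Of 27 measured markers of luminal epithelium, 9 were bright, 12 in between and 6 near background, beside 10% bright and 32.9% near background of all genes. Besides Krt8, Krt19, Cdh1 and Krt7, the bright genes were Krt18, the partner of Krt8 in filaments (12.26 and 12.18), the surface glycoprotein Cd24a (11.50 and 11.28), the protease inhibitor Spint2 (10.95 and 10.89), the mucin Muc1 (10.15 and 10.11) and Klf5 (9.32 and 9.26). The epithelial ETS factor Ehf (8.94 and 8.71) and the splicing regulator Esrp2 (8.25 and 8.12) lay in between. In contrast, Epcam, an adhesion molecule of most simple epithelia, was at 3.88 and 4.06, and the splicing regulator Esrp1, the paralogue of Esrp2, at 3.92 and 3.89. The transcription factors Grhl2 (mean 4.21), Foxa1 (4.08) and Tfap2c (3.97) and the stem cell antigen Prom1 (3.47) were near background too. Gata3 (4.74), Elf5 (4.42), Rab25 (4.50) and Ovol2 (4.45), genes of luminal or polarised cells, exceeded the background limit and were still within the range of the organ-restricted genes. Epcam, Grhl2, Esrp1 and Foxa1 left the near background class only when the limit was lowered to the 90th percentile of the receptor genes, at 3.90.

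Of 17 basal markers, 2 were bright, 13 in between and 2 near background, with a median of 4.75. The bright and near background shares were 11.8% each, beside 10% and 32.9% of all genes. The bright genes were the Notch ligand Jag1 (9.51 and 9.49) and the receptor Egfr (9.32 and 9.25), which luminal cells can express as well. Krt5 had a mean of 6.08 and smooth muscle actin Acta2 was at 5.37 and 5.27 and its companion Tagln at 5.05 and 5.61. The basal keratin Krt14 (4.39 and 4.74) and the basal transcription factor Trp63 (4.68 and 4.72) were within the range of the organ-restricted genes. Cdh3, or P-cadherin (3.98 and 4.31), and Krt6a (4.03 and 4.29) were near background.

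Milk genes were mostly near background. Of 14 genes, 10 were near background (71.4%) and 1 was bright (7.14%), beside 32.9% and 10% of all genes. The casein genes Csn1s1 (3.20 and 3.20), Csn2 (3.03 and 3.18), Csn3 (2.90 and 2.84) and Csn1s2a (2.80 and 2.77) were all near background on both arrays, and whey acidic protein Wap was at 4.37 and 4.66. The bright gene was Mfge8 (10.49 and 10.52), whose product coats milk fat globules and is also made outside the lactating gland. Of 15 hormone and growth factor receptors, 0 were bright and 3 near background (20%). The insulin-like growth factor receptor Igf1r was the highest (8.39 and 8.42), followed by the thyroid hormone receptor Thra (8.11 and 8.18). The oestrogen receptor Esr1 was at 4.63 and 4.61 and the progesterone receptor Pgr at 3.71 and 4.03.

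Of 24 keratins, 4 were bright (Krt8, Krt19, Krt18 and Krt7) and 7 near background. These are 16.7% and 29.2%, beside 10% and 32.9% of all genes. Krt20, known from intestine and bladder, was at 8.74 and 8.69. The epidermal keratins Krt1 (3.89 and 3.88) and Krt2 (3.91 and 3.75) were near background together with Krt76 (3.78 and 3.68) and Krt24 (3.58 and 3.60). Squamous genes were split. Sprr1b (11.66 and 11.37) and Sprr1a (9.39 and 9.37), precursors of the cornified envelope, were bright, but involucrin (Ivl, 4.13 and 4.28), Casp14 (3.54 and 3.86), Sprr3 (3.59 and 3.70) and Lce1g (3.29 and 3.69) were near background. In total 2 of 15 squamous genes were bright (13.3%) and 6 near background (40%), near the 10% and 32.9% of all genes.

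A part of the intestinal list was bright. Among the lists of intestine, liver, endothelium, blood, fat, nerve and muscle, only the intestinal list had more than 1 bright gene. The squamous list above had 2 of 15 bright. A renal list described below, added after levels had been seen, had 3 of 20. Of 23 intestinal genes, 4 were bright (17.4%), 8 in between and 11 near background (47.8%), beside 10% and 32.9% of all genes. Lgals4, or galectin-4, was at 12.11 and 12.08 (percentile 99.7), and Cdh17, the liver-intestine cadherin, at 10.88 and 10.60. The nuclear receptor Hnf4a was at 9.48 and 9.34 and villin, the actin bundler of microvilli encoded by Vil1, at 9.44 and 9.35. The homeobox factor Cdx2 (8.75 and 8.84), Krt20, the factor Foxa2 (8.34 and 8.13) and the brush border protease Mep1a (8.06 and 7.75) followed. The products of mature enterocytes and goblet cells were near background, with the fatty acid binding proteins Fabp1 (3.01 and 3.06) and Fabp2 (3.29 and 3.51), sucrase-isomaltase Sis (3.18 and 3.26) and the mucin Muc2 (mean 4.17). Lgals4, Cdh17, Hnf4a, Vil1 and Cdx2 had means of 8.79 or more. The highest background limit tried was 5.15, so none of the limits could have placed them near background. Genes of the intestine that are also used by other epithelia, such as Cdh17 and Hnf4a, do not by themselves name a cell type.

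Of 19 hepatocyte genes, 1 was bright (5.26%) and 9 near background (47.4%), beside 10% and 32.9% of all genes. The bright gene was Hpx, which encodes the haem carrier hemopexin (9.21 and 9.38). Albumin (Alb, 3.55 and 3.50), the fibrinogen chain Fgg (3.17 and 3.39), Cyp2e1 (3.05 and 3.21) and Cyp3a11 (2.80 and 2.87) were near background.

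Of 26 mesenchymal markers, 2 were bright (7.69%), 15 in between and 9 near background (34.6%), with a median of 5.22. These values lie near those of all genes, with 10% bright, 32.9% near background and a median of 5.58. Next to Vim, fibronectin (Fn1) was at 9.61 and 9.70. N-cadherin (Cdh2) was at 8.83 on both arrays and S100a4 at 8.77 and 8.53, both under the bright limit. The EMT transcription factors were lower, with Zeb1 at 6.83 and 6.60, Snai1 at 5.86 and 6.15, Zeb2 at a mean of 5.29, Twist1 at 5.09 and Snai2 at 3.29 and 3.36. Decorin (Dcn, 3.05 and 3.16), lumican (Lum, 2.80 and 2.68), the fibroblast protease Fap (mean 3.08) and periostin (Postn, 3.42 and 3.37), products of fibroblasts, were near background. Of the defining fibroblast markers, Pdgfra had a mean of 4.85 and Col1a1 of 6.41.

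Markers of other tissues that could accompany mammary epithelium were near background or in between, beside 32.9% near background of all genes. Of 14 endothelial genes 8 were near background, with Pecam1 at a mean of 4.12, Cdh5 at 4.26 and 4.22 and Kdr at 4.03 and 4.12. The other 6 were in between, the highest being Flt1 (6.78 and 6.64). Of 16 immune genes 10 were near background, including the pan-leukocyte gene Ptprc at 3.70 and 3.83. The highest immune gene was Cd68 (7.16 and 7.07), a lysosomal protein that is not restricted to macrophages, followed by Csf1r (5.64 and 5.59). Of 11 adipocyte genes 7 were near background, including Adipoq at 3.08 and 3.20, and the highest was Lipe (6.30 and 6.21). Of 19 genes of nerve and muscle, 8 were near background (42.1%) and 11 in between. None of these 4 lists had a bright member.

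**Figure D2:**
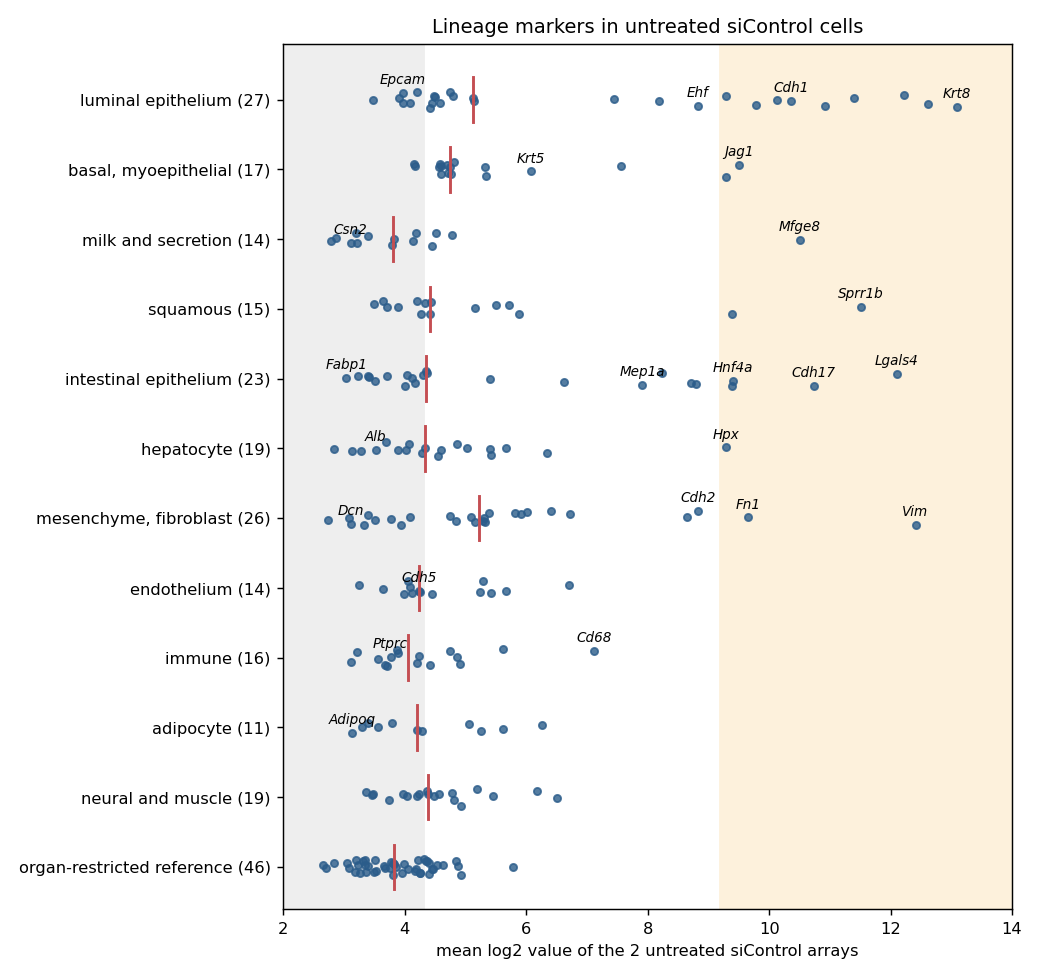
Mean log2 value of the 2 untreated siControl arrays (horizontal axis) for each measured gene of 12 lists, with the number of genes in parentheses, the median of a list as a red line, the near background range in grey and the bright range in yellow. The luminal, intestinal and mesenchymal lists each hold both bright and near background genes, whereas the endothelial, immune, adipocyte, neural and muscle lists and the organ-restricted reference hold no bright gene.

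Of 23 cadherins, catenins and nectins, 9 were bright (39.1%), 9 in between and 5 near background (21.7%), with a list median of 6.53. Over all genes the shares were 10% and 32.9%. β-catenin (Ctnnb1) was at 11.66 and 11.64 and α-catenin (Ctnna1), which links it to actin, at 10.58 and 10.49. Besides Cdh1 and Cdh17, the cadherins Cdh16 (10.56 and 10.42) and Cdh6 (10.13 and 10.04), both known from kidney epithelium, were bright. With N-cadherin at 8.83, 5 cadherin genes thus had a mean above 8. The 4 nectins had means from 5.45 to 6.89. The neural and muscle forms of α-catenin, Ctnna2 (3.74 and 4.15) and Ctnna3 (3.75 and 3.91), and the mesenchymal cadherin Cdh11 (4.04 and 4.13) were near background.

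Of 16 desmosome genes, 3 were bright (18.8%) and 6 near background (37.5%), beside 10% and 32.9% of all genes. Plakoglobin (Jup, 10.01 and 9.97), periplakin (Ppl, 9.91 and 9.85) and desmoplakin (Dsp, 9.84 and 9.91), which anchor keratin filaments, were the bright ones. Other plaque proteins were lower, with envoplakin (Evpl) at 5.90 and 6.09, Pkp3 at a mean of 5.98 and Pkp1 at 5.28. The highest desmosomal cadherin was Dsg2 at 7.36 and 7.41. Dsc2 (3.68 and 3.65), Dsc3 (3.42 and 3.58), Dsg3 (3.36 and 3.46) and Dsg4 (3.37 and 3.60) were near background. A desmosome contains both desmogleins and desmocollins.

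Of 11 tight junction genes, 3 were bright and 3 near background (27.3% each), beside 10% and 32.9% of all genes. The bright genes were the adhesion molecule F11r, or JAM-A (10.33 and 10.32), the scaffold ZO-1 (Tjp1, 10.02 and 10.11) and cingulin (Cgn, 9.30 and 9.42). Occludin (Ocln) was at 6.63 and 6.87. Of 21 claudins, which form the barrier strands, 1 was bright (4.76%) and 5 were near background (23.8%). Cldn12 was at 10.81 and 10.91 and the cation pore Cldn2 at 8.35 and 8.10. The next were Cldn3 (5.83 and 6.32) and Cldn9 (5.91 and 6.01), and the barrier claudins Cldn1 (3.09 and 3.29) and Cldn8 (3.09 and 2.96) were near background. Cldn7, common in luminal epithelium, had a mean of 4.38.

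Connexins of gap junctions included 0 bright genes among 11, and 6 were near background (54.5%), beside 10% and 32.9% of all genes. Gjb5 was the highest (7.83 and 7.78), followed by Gjb1 (6.17 and 6.61). Gja1, or connexin 43, was at 4.53 and 4.58 and Gjb2, or connexin 26, at 3.14 and 3.31. All 6 genes of the hemidesmosome, the anchor to the basement membrane, were above background. Cd151 (10.34 and 10.37) and plectin (Plec, 9.95 and 10.01) were bright, the integrin chains Itgb4 (8.91 and 8.94) and Itga6 (8.46 and 8.23) lay below them, and Col17a1 was the lowest at 4.79 and 5.05. Of 18 polarity genes, 4 were bright (Prkci, Stk11, Mark2 and Dlg1, with means from 9.57 to 9.23) and 3 near background (Dlg3, Crb1 and Pard6g). These are 22.2% and 16.7% of the polarity list. Crb3, the Crumbs protein of epithelia, was at 7.36 and 7.41.

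Fibrillar collagens were uniformly of low to moderate signal. None of 9 was bright and none near background, with means from 4.53 (Col5a2) to 6.58 (Col2a1). Of all genes, 10% were bright and 32.9% near background. Col1a1 was at 6.21 and 6.62 and Col3a1 at 5.61 and 6.03. Array 2 was higher than array 1 in 8 of these 9 genes, by up to 0.43. The 13 other collagens behaved alike, with 0 bright, 0 near background and Col6a1 the highest at 6.67 and 6.90. Col2a1, the highest of the fibrillar genes, is known from cartilage.

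Of 21 basement membrane genes, 3 were bright and 3 near background (14.3% each), beside 10% and 32.9% of all genes. Agrin (Agrn, mean 9.95) and the laminin chains Lamc1 (9.56 and 9.49) and Lama5 (9.38 and 9.54) were bright. Together with Lamb2 (8.26 and 8.35), these are the chains of laminin-521, a form made by many epithelia. Of laminin-332, the ligand of hemidesmosomes, Lamb3 was at 8.37 and 8.31, but Lama3 was at 4.25 and 4.34. Lama2 (3.67 and 3.82) and Lama4 (3.47 and 3.55), chains of muscle and vessels, were near background.

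Among 21 matricellular and fibre genes, 4 were bright (19.0%) and 7 near background (33.3%), beside 10% and 32.9% of all genes. The secreted regulators Ccn1 (11.26 on both arrays) and Ccn2 (10.50 and 10.46), targets of YAP and TGFβ signalling, Fn1 and Sparc (9.29 and 9.28) were bright. Tenascin C (Tnc) was at 5.36 and 4.90 and periostin near background. Of 18 proteoglycan genes and hyaluronan synthases, 3 were bright (16.7%) and 11 near background (61.1%). Syndecan-4 (Sdc4, 10.42 and 10.36), syndecan-1 (Sdc1, 9.96 and 9.87) and the hyaluronan receptor Cd44 (9.32 and 9.24) were bright, whereas syndecan-2 (Sdc2, 3.37 and 3.33) was near background.

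Of 25 integrin chains, 4 were bright (16%) and 9 near background (36%), near the 10% and 32.9% of all genes. Itga3 (10.93 and 10.78) and Itgb1 (10.71 and 10.71), which pair as a laminin receptor, and Itgav (9.59 and 9.57) and Itgb5 (9.27 and 9.19), which pair as a vitronectin receptor, were bright. The fibronectin receptor chain Itga5 was at 6.29 and 6.12. The lowest chains were Itgb8 (3.67 and 3.62), Itga8 (3.78 and 3.69), Itga4 (3.73 and 3.77) and the leukocyte chain Itgam (3.80 and 3.95). Of 17 matrix proteases and inhibitors, 1 was bright (5.88%) and 7 near background (41.2%). The inhibitor Timp2 was at 10.45 and 10.36 and the membrane protease Mmp14, which acts with it, at 8.67 and 8.66. The collagenase Mmp13 was at 7.89 and 7.73 and the gelatinase Mmp9 at 4.51 and 4.69.

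**Figure D3:**
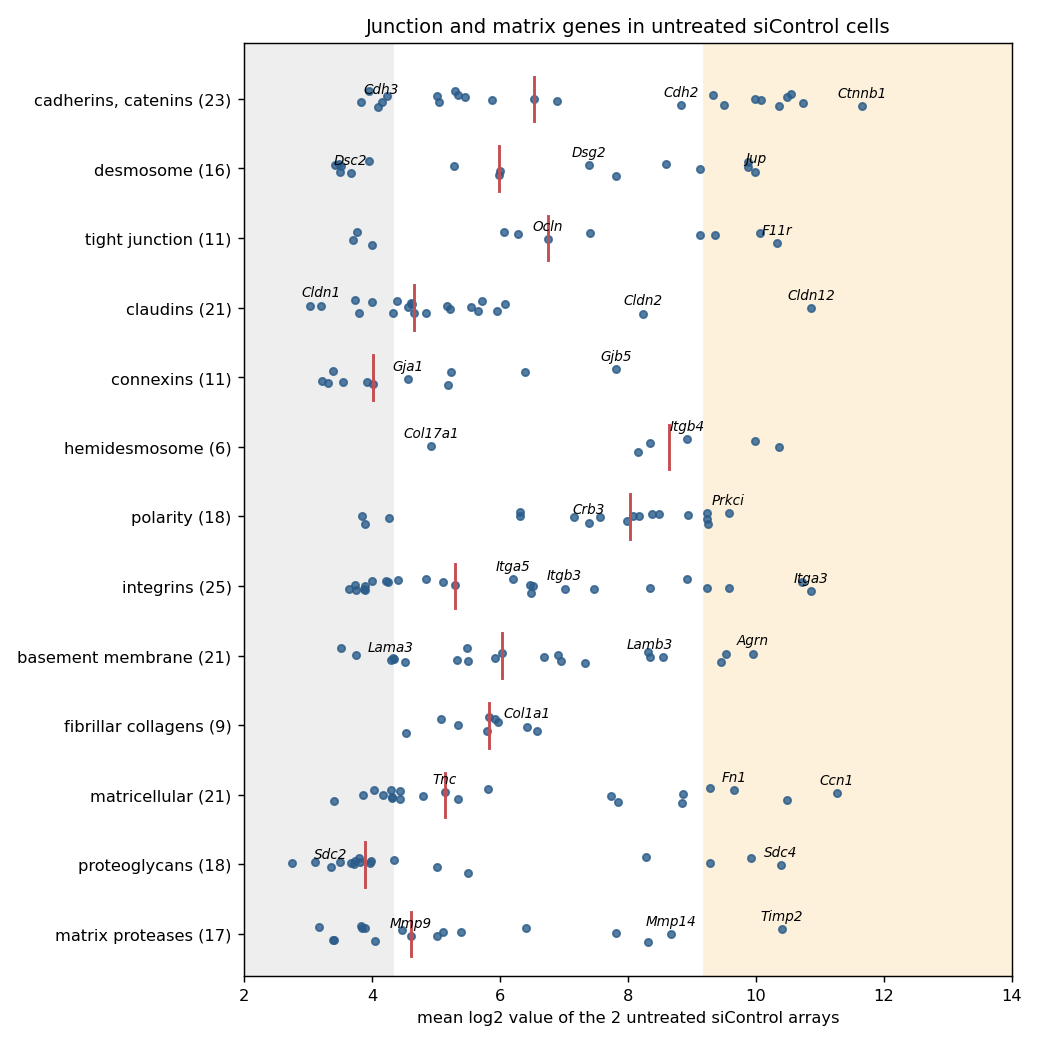
Mean log2 value of the 2 untreated siControl arrays (horizontal axis) for each measured gene of 13 junction and matrix lists, with the number of genes in parentheses, list medians as red lines, the near background range in grey and the bright range in yellow. Cadherins and catenins reach 11.65 (Ctnnb1), while the 9 fibrillar collagens all lie between 4.53 and 6.58.

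Many genes of central carbon metabolism were bright. Of 27 glycolysis genes, 13 were bright (48.1%) and 3 near background (11.1%), beside 10% and 32.9% of all genes. Pgam1 (12.88 and 12.83), lactate dehydrogenase Ldha (12.52 and 12.57), hexokinase Hk1 (12.49 and 12.39) and Pgk1 (12.35 and 12.37) were the highest. The isozymes were unequal in class, with Ldhb at 5.27, Pfkp at 5.31 and the testis forms Pgk2 (3.17 and 3.24), Ldhc (3.26 and 3.52) and Gapdhs (4.04 and 3.98) near background. Pklr, the pyruvate kinase of liver and red cells, had a mean of 9.28 next to 12.07 for Pkm, the form of most tissues. Of the glucose transporters, Slc2a1 was at 10.97 and 11.01 and the muscle and fat form Slc2a4 had a mean of 4.83. All 24 genes of pyruvate oxidation and the TCA cycle were above background and 16 of them were bright, from malate dehydrogenase Mdh2 (11.61 and 11.67) to pyruvate carboxylase Pcx, the lowest, at 7.40 and 7.59.

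Of 24 genes of lipid synthesis, 14 were bright (58.3%) and 2 near background (8.33%), beside 10% and 32.9% of all genes. After Scd2, the highest were the sterol demethylase Cyp51 (11.54 and 11.50), the SREBP regulator Insig1 (11.28 and 11.34) and squalene epoxidase Sqle (10.88 and 10.87). Fatty acid synthase (Fasn) was at 10.32 and 10.36. The desaturase paralogues Scd1 (3.77 and 3.64) and Scd3 (3.55 and 3.63) were near background, and Acacb, the mitochondrial acetyl-CoA carboxylase, was at 4.81 and 5.01. Of 18 genes of fatty acid oxidation, 6 were bright, headed by Hadh (10.85 and 10.84), and 3 near background, among them Pdk4 (3.51 and 3.40) and the fatty acid carrier Cd36 (3.57 and 3.34).

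Of 17 genes of amino acid and one-carbon metabolism, 13 were bright (76.5%) and 0 near background, beside 10% and 32.9% of all genes. The transaminase Got1 (12.10 and 12.10), the amino acid transporter chain Slc3a2 (11.59 and 11.57), Psat1 of serine synthesis (11.58 and 11.49) and asparagine synthetase Asns (11.21 and 11.31) were the highest. The lowest was the cystine transporter Slc7a11 (7.27 and 7.35). In contrast, 0 of 11 genes of gluconeogenesis and the urea cycle were bright and 6 were near background. The mitochondrial Pck2 (8.45 and 8.61) and Asl (8.20 and 8.25) were the highest, and the liver genes G6pc (3.60 and 3.64), Fbp1 (3.62 and 3.68) and Otc (3.26 and 3.19) were near background.

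Of 23 cytochrome P450 genes, 1 was bright (4.35%) and 16 were near background (69.6%), beside 10% and 32.9% of all genes. Cyp2s1, a P450 of epithelia, was at 9.81 and 9.75, Cyp4b1 at 8.36 and 8.35 and Cyp2c65 at 8.20 and 7.76. The liver genes Cyp7a1 (3.03 and 3.19), Cyp2e1 and Cyp3a11 were near background. Of 30 genes of conjugation and detoxification, 10 were bright (33.3%) and 4 near background (13.3%). The glutathione transferases Gstp1 (11.61 on both arrays) and Gsto1 (10.99 and 10.71), the peroxidase Gpx4 (11.64 and 11.47) and Gclc (10.58 on both arrays), which makes the precursor of glutathione, headed this list. Gpx2 was split by the background limit (3.91 and 4.68) and had the widest gap of the list, 0.77.

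**Figure D4:**
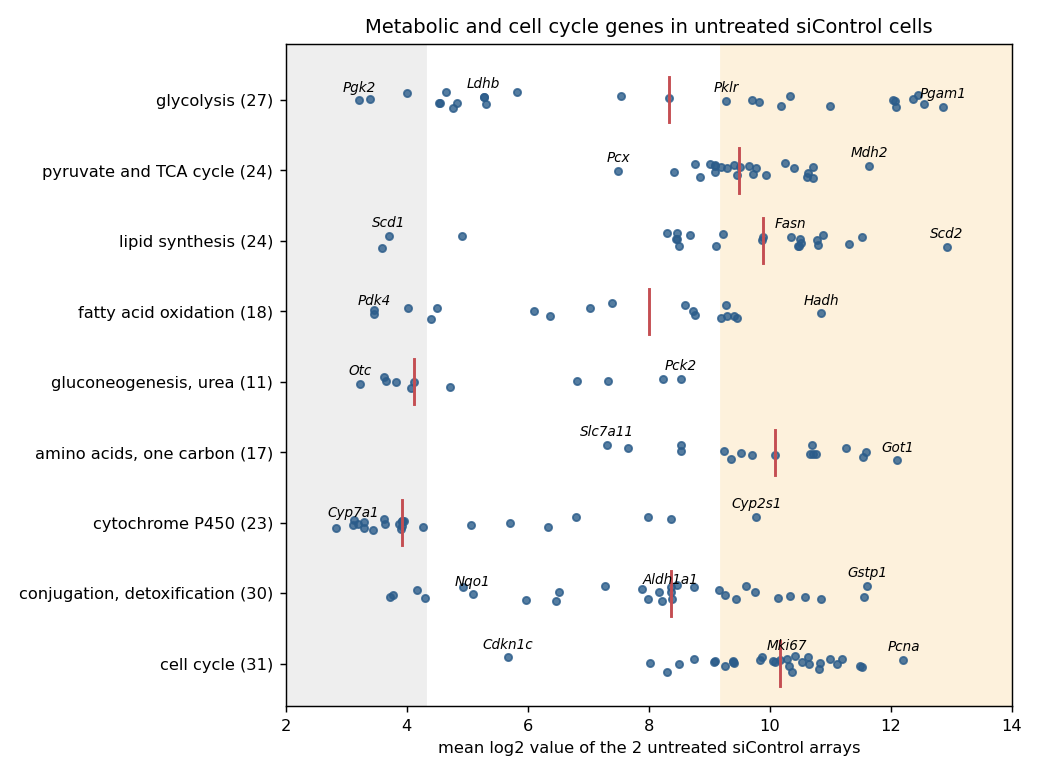
Mean log2 value of the 2 untreated siControl arrays (horizontal axis) for each measured gene of 8 metabolic lists and the cell cycle list, with the number of genes in parentheses, list medians as red lines, the near background range in grey and the bright range in yellow. The medians of the TCA cycle, lipid synthesis, amino acid and cell cycle lists lie in the bright range (9.48, 9.88, 10.08 and 10.17), whereas that of the cytochrome P450 list lies near background at 3.92.

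Most receptors and signal carriers of TGFβ were above background before treatment. Of 21 genes, 2 were bright and 2 near background (9.52% each). The bright share lay near the 10% of all genes, and the near background share was below their 32.9%. The common mediator Smad4 was at 9.94 and 9.97 and the type I receptor Tgfbr1 at 9.38 and 9.44. Smad3 (8.93 and 8.89), the type II receptor Tgfbr2 (8.75 and 8.72) and Smad2 (8.80 and 8.51) were next. The ligand Tgfb1 was at 8.36 and 8.27, while Tgfb3 (3.81 and 4.05) and the BMP receptor Bmpr1b (3.13 and 3.37) were near background. Of the 17 Klf family members, Klf6 (10.31 and 10.18), Klf5 and Klf3 (9.29 and 9.10) were bright, and Klf12, Klf8 and Klf17 near background. Each of these classes held 17.6% of the family. Klf4 was therefore 1 of 14 family members above the background limit, and Klf16 (8.49 and 8.47) was the next of the family below it in rank.

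The other groups show which of these levels moved with each condition. Both comparisons share the untreated siControl arrays and were tested with limma over all genes, with Benjamini-Hochberg adjustment. In siKlf4 cells without TGFβ, 1990 genes were higher (9.98% of those tested) and 1936 lower (9.71%) at an adjusted p under 0.05, in all 19.7%. In siControl cells with TGFβ for 2 days, 1158 were higher (5.81%) and 1326 lower (6.65%), in all 12.5%. Of the 1994 genes bright in untreated siControl cells, 83.4% were bright on both siKlf4 arrays and 87.6% on both TGFβ arrays of siControl, and 0 had become near background. Of the 6567 genes near background, 137 (2.09%) lay above the limit on both siKlf4 arrays and 185 (2.82%) on both siControl arrays with TGFβ. The classes were set on the same siControl arrays that serve as the baseline, so these shares are descriptive.

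The marker genes differed in their response. Klf4 itself had log2 values of 8.03 and 7.91 on the siKlf4 arrays, lower than the siControl values of 8.60 and 8.43 without overlap, by a log2 difference of -0.54 ± 0.10 (SE, limma adjusted p = 0.0037). Krt19 fell to 11.75 and 11.51 (-0.99 ± 0.10, limma adjusted p = 9.3e-05) and Krt7 rose to 10.76 and 11.01 (1.11 ± 0.10, limma adjusted p = 5.5e-05) in siKlf4 cells. Vim rose to 12.72 on both arrays (0.31 ± 0.07, limma adjusted p = 0.015), a call that was lost when only the 4 arrays compared were fitted (limma adjusted p = 0.087) and without replicate 2 of siControl (0.060) or replicate 1 (0.053) or 2 (0.051) of siKlf4. Cdh1 was at 10.20 and 10.15 in siKlf4 cells and did not pass the test (-0.19 ± 0.08, limma adjusted p = 0.14). With TGFβ, Klf4 fell to 7.46 on both siControl arrays (-1.05 ± 0.10, limma adjusted p = 0.00036), whereas Cdh1, Vim, Krt7 and Krt19 did not pass the test, with log2 differences from -0.16 to 0.25. Cdh1 (0.25 ± 0.08, limma adjusted p = 0.067) did pass with the trend and robust options of limma, without moderation, after quantile normalization and after the lowest 30% by signal were removed.

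Of the intestinal genes, 7 of 23 were lower and 2 higher in siKlf4 cells, with a median log2 difference of -0.10, beside 9.71% lower and 9.98% higher and a median of 0.00 over all genes. Lgals4 was at 9.03 and 8.69, lower by 3.24 on the log2 scale than in siControl cells (-3.24 ± 0.16 SE, limma adjusted p = 2.0e-06). Mep1a was at 4.46 and 4.35, next to the background limit (-3.50 ± 0.12, limma adjusted p = 6.4e-07). Cdx2 (-1.65 ± 0.10), Hnf4a (-1.29 ± 0.10), Foxa2 (-1.10 ± 0.14), Muc13 (-0.38 ± 0.08) and Vil1 (-0.32 ± 0.08) also fell, at limma adjusted p-values of 7.9e-06, 2.9e-05, 0.00045, 0.011 and 0.020. The fall of Vil1 was not called when only the 4 arrays compared were fitted (0.086), without replicate 1 of siControl (0.097) or without replicate 2 of siKlf4 (0.097). Cdh17 did not pass (10.59 and 10.41, -0.24 ± 0.11, limma adjusted p = 0.21), and the 2 genes that rose were Krt20 (1.11 ± 0.08) and Ceacam1 (1.06 ± 0.08), at limma adjusted p-values of 1.4e-05 and 2.0e-05. With TGFβ alone, 3 of these 23 genes were lower and 1 higher, beside 6.65% and 5.81% of all genes. Cdh17 fell to 9.87 and 9.75 (-0.93 ± 0.11, limma adjusted p = 0.0011), while Lgals4 stayed at 12.05 and 12.04 (-0.05 ± 0.16, limma adjusted p = 0.89). Mep1a and Krt20 were called lower with TGFβ at limma adjusted p-values of 0.014 and 0.011, calls that were lost without replicate 1 of either siControl group and, for Krt20, also without replicate 2 of siControl with TGFβ. The call of Mep1a was lost without moderation as well.

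**Figure D5:**
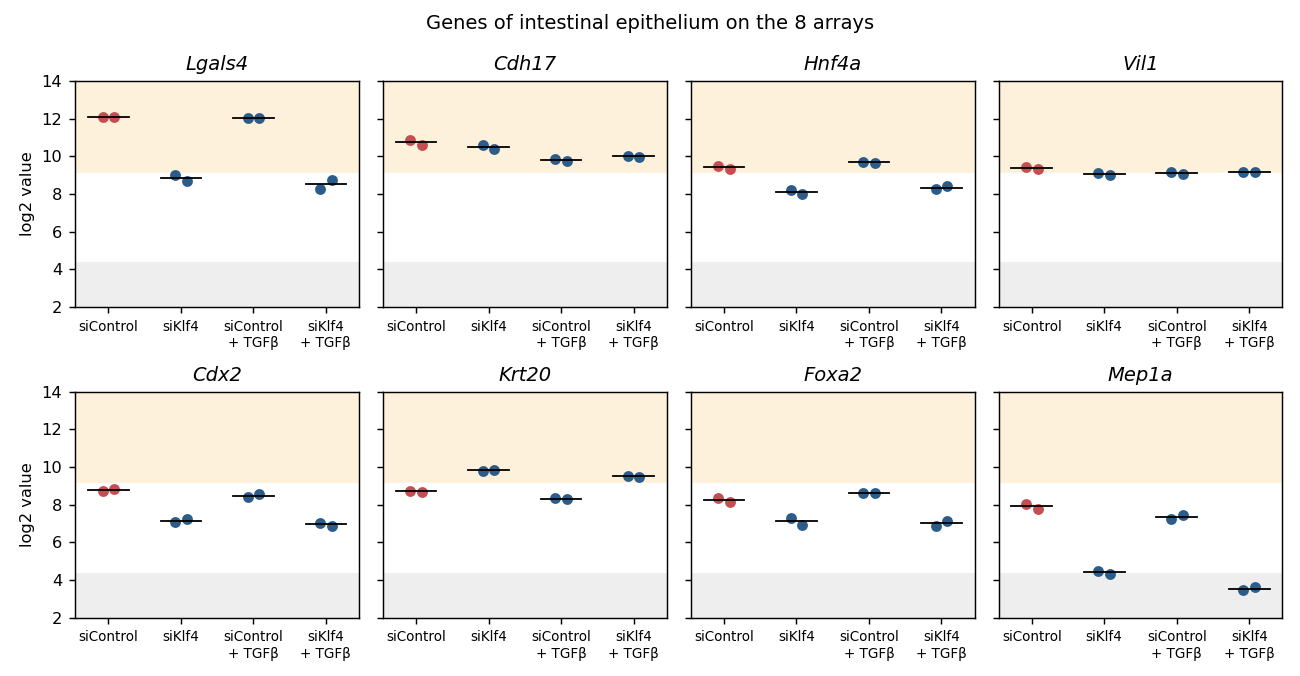
Log2 values (vertical axis) of 8 intestinal genes on each of the 8 arrays, with 2 points per group and the group mean as a black line; untreated siControl arrays are red, the near background range is grey and the bright range yellow. Lgals4, Hnf4a, Cdx2, Foxa2 and Mep1a lie lower on both siKlf4 arrays than on both untreated siControl arrays, Krt20 lies higher, and Cdh17 is lowest on the siControl arrays with TGFβ.

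Outside the intestinal list, the listed genes with the largest falls in siKlf4 cells were also genes of epithelial and metabolic function. They were the P450 genes Cyp2c65 (-3.82 ± 0.17) and Cyp2s1 (-3.50 ± 0.13) and the glucuronosyltransferase gene Ugt2b34 (-3.39 ± 0.15), with limma adjusted p-values of 1.4e-06, 6.6e-07 and 1.4e-06. A fall of this size needs a start well above background, so the moderate or bright level of these genes in untreated siControl cells follows from the choice. The largest rises were in Tnc (4.71 ± 0.14), Sdc3 (3.59 ± 0.15), Thbs1 (3.48 ± 0.09), Itga5 (3.42 ± 0.11) and Lce1g (3.03 ± 0.17), all at limma adjusted p-values of 4.3e-06 or lower. Of these, only Lce1g had been near background, and it rose to 6.77 and 6.28. By list, 24 of 31 cell cycle genes, 21 of 30 detoxification genes, 14 of 24 lipid synthesis genes and 10 of 17 amino acid genes were lower in siKlf4 cells, with median log2 differences of -0.60, -0.65, -0.41 and -0.35. In these lists 2, 2, 0 and 0 genes were higher. Over all genes 9.71% were lower and 9.98% higher, and over the bright genes, to which many of these members belong, 23.4% were lower and 12.1% higher. Of 21 matricellular genes 9 were higher and 1 lower, and of 25 integrins 9 were higher and 2 lower, with medians of 0.13 and 0.12.

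With TGFβ, the largest rises among the listed genes were in Mmp13 (1.99 ± 0.09), Tnc (1.46 ± 0.14), Cd36 (1.41 ± 0.13), Ugt2b34 (1.37 ± 0.15) and Cyp1b1 (1.37 ± 0.08). Cd36 had been near background and was at 4.69 and 5.04 with TGFβ. The largest falls were in Cyp3a13 (-1.33 ± 0.19), Cd68 (-1.30 ± 0.14), the glutamine transporter Slc1a5 (-1.23 ± 0.09), the tenascin Tnxb (-1.22 ± 0.09) and S100a4 (-1.15 ± 0.12). All 10 had limma adjusted p-values of 0.0024 or lower, and the call of Cyp3a13 was lost in the analysis of variance without moderation (adjusted p = 0.073). Of 31 cell cycle genes, 15 were lower and 3 higher, with a median of -0.24, beside 6.65% of all genes called lower and 5.81% higher and 14.9% and 7.67% of the bright genes. N-cadherin (Cdh2) rose from 8.83 to 9.61 and 9.58 (0.76 ± 0.08, limma adjusted p = 0.00045), and of the 26 mesenchymal genes 1 was called higher, Cdh2, and 1 lower, S100a4.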

How the data were processed

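There were 8 Affymetrix gene arrays of NMuMG RNA, 2 for each of 4 groups taken from the labels. Robust Multi-Array (RMA) normalization was applied by the authors, with oligo 1.14.0 according to the processing notes of the submitters. The deposited table gives RMA values per probe set, taken to be log2 from their range. Genes were named through the platform annotation, whose symbols were checked against RefSeq (21553 of 21640 probe sets matched). Groups were compared with limma 3.58.1 in R 4.3.3 over 19937 genes, with 1 mean per group, no block and no filter, taking for each gene its highest probe set by the mean of all 8 arrays, which differs for 30 genes from that on the 2 untreated arrays. A gene was called at an adjusted p under 0.05. The fit was first tested on simulated data. The number of arrays limits the precision, and p-values measure the spread between these arrays.

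The members and the 38 gene lists, with 671 measured genes, were chosen with earlier results of these data known, as was a reference of organ-restricted genes. Of all 766 listed symbols, 49 had no probe set with 1 symbol and were not analysed here. Named genes are the 5 markers, the 20 brightest, the up to 4 highest and 4 lowest of each list, the 5 widest gaps between arrays and the 5 largest rises and falls among listed genes, plus partners in a complex and defining markers. Alternatives were other background limits, other choices of probe set, quantile normalization, other limma settings, the analysis of variance named in the methods and each array left out. Promoter sequences are those of RefSeq on GRCm38.p6.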

Additional observations from a re-analysis of the deposited data

How the results depend on the processing

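The number of genes near background ranged from 4920, with the 90th percentile of the receptor genes (3.90) as the limit, to 9071 with the 99th (5.15). It was 8402 with the organ-restricted genes as reference and 5425 with the receptor genes left out of the count, an alternative chosen after seeing the data. Among listed genes, 186 were near background, and this count moved to 119 and 288 with the 90th and 99th percentile and to 266 with the organ-restricted reference. The 155 bright listed genes ranged from 149 to 155 over all alternatives. With the organ-restricted or 99th percentile limit, Rab25, Ovol2, Cldn7, Gata3, Elf5, Wap, Trp63, Krt14, Pdgfra, Gja1 and Esr1 were also near background. For TGFβ against none in siControl cells, the analysis of variance without moderation called 734 genes higher and 755 lower, and leaving out 1 array gave between 481 and 882 higher and between 567 and 1175 lower, in place of 1158 and 1326. Without replicate 1 of siControl 726 were lower, and without replicate 1 or 2 of siControl with TGFβ 539 and 481 were higher and 567 and 609 lower. For siKlf4 against siControl without TGFβ, leaving out 1 array gave 1566 to 1857 higher and 1574 to 1717 lower. With the replicate block, 2037 were higher and 1994 lower with siKlf4, and 1211 and 1349 with TGFβ. The correlation of replicate differences between groups was 0.313 for the 2 groups without TGFβ and between 0.012 and 0.079 for the other pairs. Whether the replicate numbers pair the arrays of the 2 groups without TGFβ was not tested. With the trend and robust options, Cdx2, Foxa2, Hnf4a and Vil1 were also called with TGFβ, as was Cdh1 in both comparisons. Vil1 was also called lower with TGFβ under the replicate block (limma adjusted p = 0.046), after quantile normalization (0.048) and with the lowest 30% by signal removed (0.033), against 0.055 in the fit reported. No called result of these alternatives changed its sign. Dim probe sets and 2 arrays per group limit what can be said of genes between 4.32 and 4.87.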

Other observations

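Further gene groups were looked at after their levels had been seen, so their counts are descriptive. Of 20 genes of renal epithelium, 3 were bright (15%) and 6 near background (30%) in untreated siControl cells. These shares lie near the 10% and 32.9% of all genes. Besides the kidney cadherins Cdh16 and Cdh6, the bright gene was Pax2, a paired box factor of kidney and duct development, at 9.63 and 9.56. The water channel Aqp1 was at 7.92 and 7.84 and Pax8 at 6.70 and 6.71. Genes of differentiated tubules such as Umod (3.87 and 3.75), Slc12a1 (3.79 and 3.92) and Kl (3.41 and 3.93) were near background. Umod and Slc12a1 also belong to the organ-restricted reference, so the renal description and that reference share genes. Of 24 transcription factors of endoderm and its relatives, 1 was bright (4.17%), Hnf4a, and 6 were near background (25%). Hhex (8.76 and 8.63), Gata6 (8.59 and 8.68), Onecut2 (8.19 and 8.06) and Sox9 (7.77 and 7.53) lay between the limits, together with Cdx2 and Foxa2, while the endoderm factor Sox17 (3.61 and 3.66) and Sox2 (3.81 and 3.71) were near background. In siKlf4 cells without TGFβ 7 of these 24 factors were lower and 2 higher, beside 9.71% and 9.98% of all genes. Hnf4a, Cdx2 and Foxa2 were also counted among the intestinal genes that were lower, so the counts overlap.

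Most galectins, which bind sugars, and most annexins, which bind membranes, were bright. Of 8 galectins, 5 were bright: Lgals1, Lgals4, Lgals2 (11.72 and 11.42), Lgals3 (10.49 and 10.32) and Lgals9 (10.40 and 10.32). Of 12 annexins, 8 were bright and 1 near background. Anxa13, an annexin known from intestine and kidney, was the highest at 11.99 and 12.01, and Anxa2 was at 11.87 and 11.74. Anxa10, known from stomach, was at 3.52 and 3.62. In siKlf4 cells 3 of 12 annexins were lower and 4 higher, and 3 of 8 galectins were lower and 0 higher. Over all genes 9.71% were lower and 9.98% higher. Anxa13 was at 11.19 and 10.96 and Lgals2 at 10.49 and 10.11, lower by log2 differences of -0.92 ± 0.09 and -1.27 ± 0.14 (limma adjusted p = 0.00012 and 0.00018). Anxa11 went from 10.03 and 9.85 in siControl cells to 8.26 and 8.01. In the other direction, Anxa1 went from 11.76 and 11.64 to 12.32 and 12.17.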
